A study of Oryza sativa with 156 samples.

Results

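The irrigated controls of a rice drought series were compared with each other, severe course against moderate course, on days 0, 1 and 2. Members were taken by their column names: 9 libraries of the severe-course control and 9 libraries of the moderate-course control, with 3 libraries per course and day, which makes 6 of the 52 groups of the series. The plants were of the cultivar IR64, each seed was planted on its own in a pot fed by automatic irrigation, and polyA RNA of leaves was sequenced. The severe-course controls and the moderate-course controls both kept their irrigation throughout. Moderate drought began when the supply of water was cut off, 14 days after sowing, and severe drought was made by lifting the pots higher than the hose as well, which sped up their drainage. No drought was applied to any of the 18 libraries described here. The labels give no difference in handling between the controls of the courses, and they do not say whether both courses were grown or harvested at the same time. Course and any growth run or harvest therefore cannot be told apart. The labels also do not say whether the 3 libraries of a group were grown as separate plants. The p-values therefore set each difference against a spread between libraries that may not be a spread between plants. That spread was estimated over all 52 groups together.

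Irrigated controls are the baseline against which a drought response is read. Leaf transcript levels are known to change with leaf age, with the daily light cycle and with small differences in growth conditions, and controls harvested on the same day as the stressed plants carry such changes too. A pair of control series from irrigated plants of 1 cultivar therefore shows how far expression moves without any water deficit. The comparison of the courses at the same day, and of the days within a course, answers that for the first 3 days of this series.

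Total counts ranged from 12.9 to 22.6 M (mega counts) in severe-course controls and from 15.1 to 21.2 M in moderate-course controls. No pair of libraries agreed within sampling noise, since the chi-square per gene was at least 8.71 within groups and 8.87 between groups. The median correlation of log2 expression across genes was 0.978 to 0.987 between libraries of 1 group. Genes carry only the identifiers of the deposited table, for which no names, coordinates or functions were at hand. For the same reason the leaf identity of the samples could not be checked against marker genes, and at most 2 higher and 2 lower identifiers are named per comparison. Levels are in CPM, the counts of a gene per mega count of its scaled library, and "called" means an adjusted p under 0.05 in edgeR's quasi-likelihood test over 19338 genes.

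A single library stood apart on genes known to separate libraries of this series. Across the severe-course controls of days 3 to 12, the mean log2 CPM of LOC_Os01g57960, LOC_Os01g49370 and LOC_Os06g39708 was 6.20 to 7.40. It was 2.90 to 4.02 in 17 of the 18 libraries described here and 5.35 in severe-course control day 0 replicate 3. In that library LOC_Os01g57960 had 94.6 CPM, against 37.3 and 29.2 CPM in the other severe-course controls of day 0, and the lowest value in the severe-course controls of days 3 to 12 was 187 CPM. Counts of genes called and named genes of the comparisons that use these day 0 controls are given with that library and also without it, from a fit of all other libraries of the series over 19745 genes, chosen after seeing the data.

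On the mean of days 0 to 2, the severe-course controls differed from the moderate-course controls in 3362 of 19338 genes, which is 17.4% of those tested. Of these, 1657 were higher and 1705 were lower in the severe-course controls. Most of the differences were small, since 365 of the 3362 genes reached a 2-fold change, 251 higher and 114 lower. In bulk leaf samples, fewer cells of a type and less RNA per cell cannot be told apart. The genes named for this comparison are those with the largest difference among called genes whose sign was shared by days 0, 1 and 2.

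LOC_Os09g27920 was higher in the severe-course controls, with a lowest, median and highest value of 1.05, 3.31 and 24.6 CPM over 9 libraries, against 0.515, 1.11 and 2.90 CPM in the moderate-course controls (log2 difference 3.03, SE 0.57, adjusted p = 0.00012 by edgeR). The courses overlapped over the 9 libraries, because on each of the 3 days severe-course libraries ran from levels within that pooled moderate-course range to several times above it. On day 1 alone they did not overlap, at 2.55 to 19.6 CPM in severe-course and 0.515 to 0.846 CPM in moderate-course controls. LOC_Os01g63190 had 1.99, 7.72 and 42.0 CPM in severe-course controls and 0.186, 1.33 and 8.45 CPM in moderate-course controls (log2 difference 2.44, SE 0.65, adjusted p = 0.0055 by edgeR). LOC_Os04g27790 was lower, with 0.0735, 1.94 and 4.30 CPM in severe-course controls and 1.30, 14.2 and 58.6 CPM in moderate-course controls (log2 difference −3.14, SE 0.71, adjusted p = 0.0012 by edgeR). Its courses overlapped only through the moderate-course library of day 2 replicate 3, which held 1.30 CPM. LOC_Os05g11320 had 1.46, 13.9 and 201 CPM in severe-course controls and 3.26, 241 and 749 CPM in moderate-course controls (log2 difference −2.98, SE 1.02, adjusted p = 0.032 by edgeR). Over 30 other settings and fits the call held in 30 for LOC_Os09g27920 and LOC_Os04g27790, in 28 for LOC_Os01g63190 and in 25 for LOC_Os05g11320. Among the failures, LOC_Os05g11320 was not called without replicate 1 of each group (adjusted p = 0.44 by edgeR) or without replicate 3 (adjusted p = 0.068). LOC_Os01g63190 was not called without replicate 1 (adjusted p = 0.11 by edgeR). Without the library that stood apart 3150 genes were called, and LOC_Os05g11320 was not (adjusted p = 0.058 by edgeR).

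The mean over days was carried by day 1. Among the 3362 genes, 2657 (79%) had their largest difference on day 1, 537 on day 0 and 168 on day 2, where 11609 (60%) of all genes tested had their largest difference on day 1. In the comparison of day 1 by itself, 2672 of the 3362 were called. For the 1657 higher genes the median log2 difference was 0.36 on day 0, 0.81 on day 1 and 0.15 on day 2. For the 1705 lower genes it was −0.26, −0.64 and −0.12 on the same days. The same sign on all 3 days was found in 2653 of the 3362 genes (78.9%), against 6826 (35.3%) of all genes tested, a share that the choice of genes by their mean raises. The mean of days 0 and 2, with day 1 left out, called 115 genes, 70 higher and 45 lower, or 0.595% of those tested. That mean rests on fewer libraries, and its median SE was 0.157, against 0.128 for days 0 to 2, so the counts differ in precision as well. None of the 4 genes named for days 0 to 2 was called on the mean of days 0 and 2. There the log2 difference was 2.5 for LOC_Os09g27920 (adjusted p = 0.054 by edgeR), 0.72 for LOC_Os01g63190 (adjusted p = 0.77), −2.55 for LOC_Os04g27790 (adjusted p = 0.14) and −1.25 for LOC_Os05g11320 (adjusted p = 0.74). The count over days 0 to 2 was 352 without replicate 1 of each group, 2303 without replicate 2 and 1734 without replicate 3.

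On day 0 the severe-course controls differed from the moderate-course controls in 259 genes (1.34%), 131 higher and 128 lower, of which 92 reached 2-fold. LOC_Os01g04800 had 13.7, 9.53 and 5.01 CPM in the severe-course controls of day 0, against 2.40, 2.84 and 3.20 CPM in the moderate-course controls (log2 difference 1.74, SE 0.34, adjusted p = 0.0016 by edgeR). LOC_Os04g16728 had 18.2, 12.2 and 11.4 CPM in severe-course controls and 7.78, 1.97 and 2.65 CPM in moderate-course controls (log2 difference 1.74, SE 0.33, adjusted p = 0.0014 by edgeR). For both genes every severe-course library of day 0 was above every moderate-course library. The rule for naming genes of single days and of day changes within a course required such groups. LOC_Os04g16728 stayed near its day 0 level in the severe-course controls, with 12.3, 11.2 and 12.1 CPM on day 1 and 13.0, 12.8 and 6.90 CPM on day 2.

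LOC_Os09g10010 was lower, with 0.294, 1.26 and 1.05 CPM in the severe-course controls of day 0 and 47.7, 73.3 and 16.9 CPM in the moderate-course controls (log2 difference −5.70, SE 1.32, adjusted p = 0.013 by edgeR). LOC_Os06g01760 had 0.662, 1.06 and 4.93 CPM in severe-course controls and 20.4, 36.8 and 11.9 CPM in moderate-course controls (log2 difference −3.40, SE 0.96, adjusted p = 0.047 by edgeR). The libraries of the courses did not overlap for either gene on day 0, again by the naming rule. Without the library that stood apart 220 genes were called, 121 higher and 99 lower, with all 4 named genes among them at log2 differences of 2.04, 1.86, −5.84 and −4.72 (adjusted p = 0.00033 to 0.042 by edgeR). Over 30 other settings and fits the day 0 call held in 13 for LOC_Os01g04800, in 11 for LOC_Os04g16728, in 27 for LOC_Os09g10010 and in 9 for LOC_Os06g01760. Day 0 rested on few libraries. Fitted on the 18 libraries alone, 212 genes were called, and 182 without severe-course control day 0 replicate 3. In that fit the count was 43 without severe-course control day 0 replicate 1, and 94, 8 and 116 without moderate-course control day 0 replicates 1, 2 and 3. It was also 126 without severe-course control day 1 replicate 1 and 135 without moderate-course control day 1 replicate 2, which are no day 0 libraries.

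On day 1 the controls of the courses differed in 5962 genes, 30.8% of those tested, with 2974 higher and 2988 lower in the severe course. Of these, 1942 reached 2-fold, 1142 higher and 800 lower. All 3 severe-course libraries lay outside the range of the 3 moderate-course libraries in 9393 genes (48.6%) on day 1, in 3667 (19%) on day 0 and in 1913 (9.89%) on day 2. Without the library that stood apart, 2 severe-course libraries lay outside that range in 6169 genes (31.2%) on day 0, where fewer libraries overlap less readily. Small groups with no true difference also separate fully in a share of genes, so such counts are not counts of genes that differ. On day 2 only 2 genes were called. The median absolute log2 difference over all genes was 0.19 on day 0, 0.37 on day 1 and 0.14 on day 2. The median SE was 0.22 on each day.

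**Figure D1:**
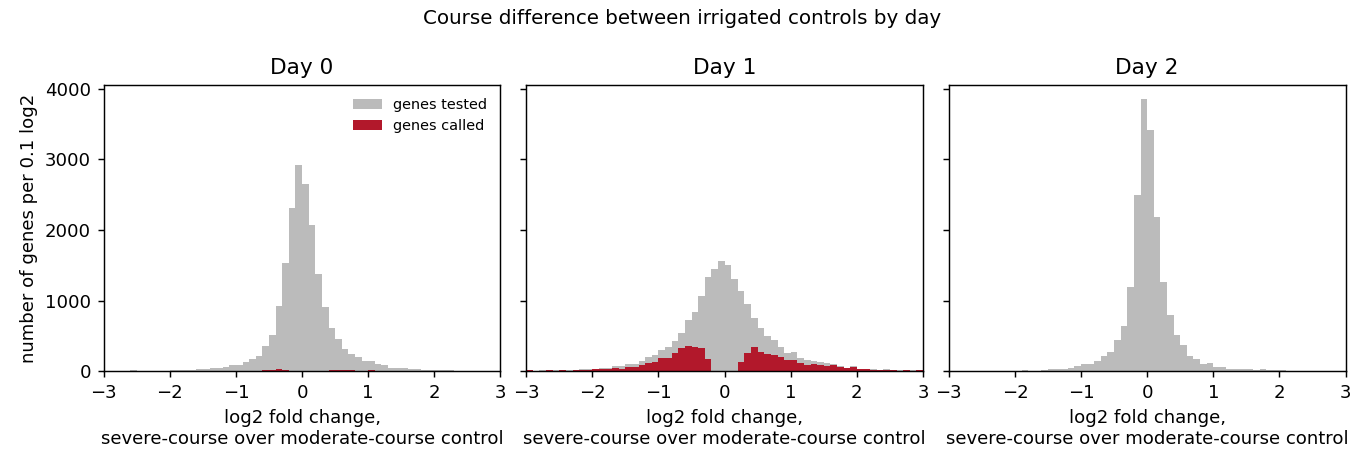
Number of genes per 0.1 log2 (y axis) by log2 fold change of severe-course over moderate-course irrigated control (x axis, cropped at −3 and 3), for days 0, 1 and 2. Grey bars are the 19338 genes tested and red bars the genes called, of which there were 259 on day 0, 5962 on day 1 and 2 on day 2; the day 1 distribution is the widest.

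LOC_Os01g63190 had 32.9, 42.0 and 6.91 CPM in the severe-course controls of day 1 and 0.915, 0.186 and 0.317 CPM in the moderate-course controls (log2 difference 5.88, SE 1.20, adjusted p = 0.00015 by edgeR). On day 0 the same gene had 3.46, 1.99 and 2.17 CPM in severe-course controls and 1.33, 1.75 and 1.91 CPM in moderate-course controls. LOC_Os05g31140 had 199, 211 and 98.5 CPM in the severe-course controls of day 1 and 4.52, 5.72 and 3.81 CPM in the moderate-course controls (log2 difference 5.17, SE 1.09, adjusted p = 0.00021 by edgeR). For both genes replicate 3 was the lowest severe-course library of day 1 and still lay above all 3 moderate-course libraries, as the naming rule required. By day 2 LOC_Os05g31140 had 180, 106 and 134 CPM in severe-course controls and 34.8, 127 and 134 CPM in moderate-course controls, and the courses overlapped.

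LOC_Os05g11320 was lower on day 1, with 1.46, 2.23 and 13.9 CPM in severe-course controls and 249.5, 749 and 602 CPM in moderate-course controls (log2 difference −6.45, SE 2.06, adjusted p = 0.012 by edgeR). LOC_Os09g10010 had 0.769, 1.05 and 0.532 CPM in severe-course controls and 76.7, 32.7 and 12.7 CPM in moderate-course controls (log2 difference −5.72, SE 1.33, adjusted p = 0.00067 by edgeR). Neither gene had overlapping courses on day 1, which the naming rule did not allow. On day 2 the moderate-course controls were low too, at 66.6, 3.26 and 3.77 CPM for LOC_Os05g11320 and 0.805, 0.815 and 0.507 CPM for LOC_Os09g10010.

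Fitted on the 18 libraries alone, the day 1 comparison called 6286 genes, and leaving out 1 of these libraries at a time gave 4514 to 6543. In the fit of all libraries, which called 5962, leaving out a replicate number in every group gave 3436 to 3780. Without severe-course control replicates 1 and 2 of day 1, which scored highest on the first principal component, 227 genes were called with the single library that remained in that group. That component held 33.5% of the variance of the 18 libraries, and on it the severe-course controls of day 1 scored 53.7, 56.5 and 29.8. The scaling factors of the libraries moved with this difference, at 0.822 to 0.854 in severe-course controls of day 1, against 1.02 to 1.10 in moderate-course controls of day 1. The 10 most abundant identifiers held 12.6% to 13.4% of counts in the severe-course controls of day 1 and 10.4% to 11.7% in the moderate-course controls. The part of this shift in composition in the result was not tested beyond the other scaling, DESeq2's size factors, which called 5945 genes, 3209 higher and 2736 lower.

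On day 2 only 2 genes were called between the courses (0.0103%), 1 higher and 1 lower, in edgeR. Before adjustment 1024 genes had a p under 0.05, and DESeq2 on the 18 libraries called 9. The gene taken by the naming rule was LOC_Os04g34290, with 16.0, 12.8 and 14.9 CPM in the severe-course controls of day 2 and 25.3, 27.6 and 22.9 CPM in the moderate-course controls (log2 difference −0.79, SE 0.16, adjusted p = 0.015 by edgeR). It had 20.5, 20.2 and 17.8 CPM on day 0 and 14.0, 12.6 and 15.9 CPM on day 1 in severe-course controls, below the moderate-course controls on each day. Its call held in 7 of the 30 other settings and fits. A gene that was not called on day 2 is not shown to be equal between the courses. The 95% interval of the log2 difference lay within a 2-fold change in either direction for 71.1% of genes on day 2, against 68.6% on day 0 and 56.6% on day 1.

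**Figure D2:**
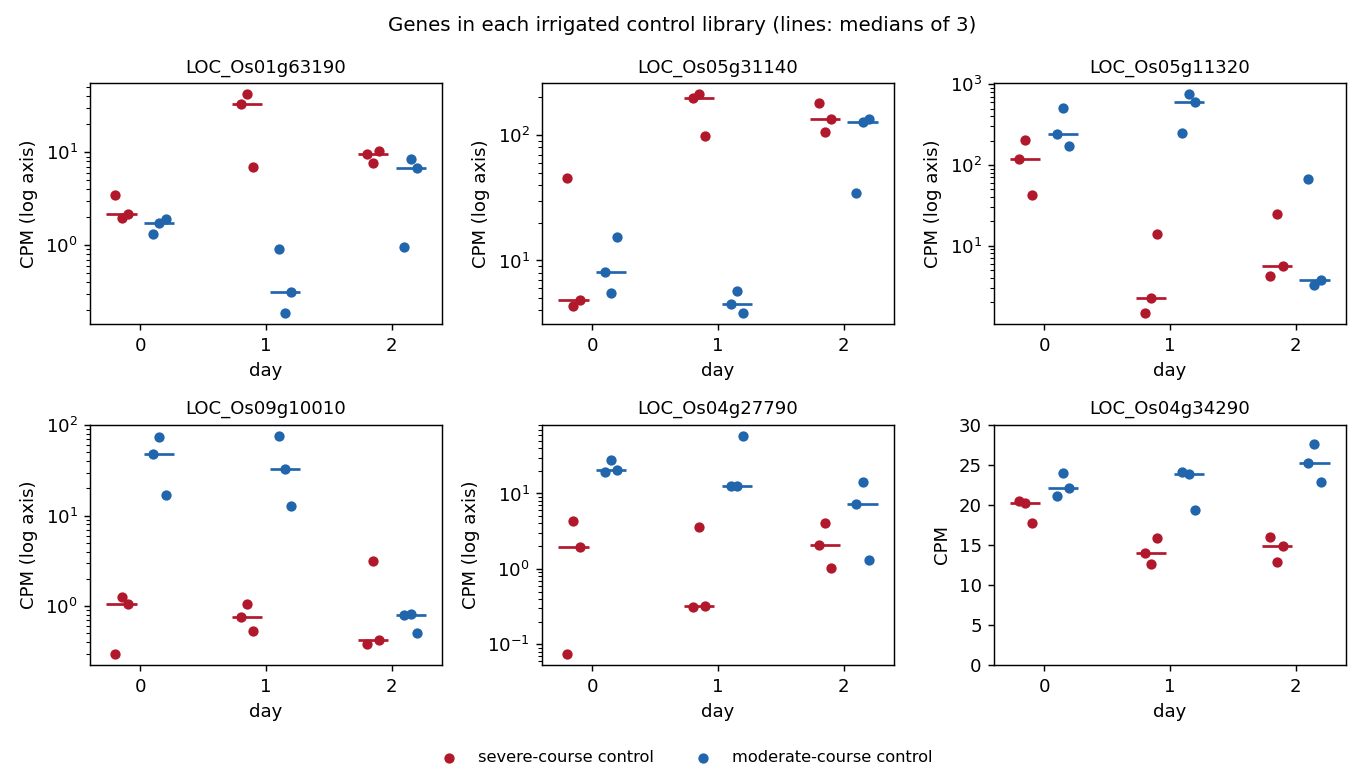
CPM (y axis, logarithmic except for LOC_Os04g34290) by day (x axis) in each severe-course control library (red, left) and each moderate-course control library (blue, right), for 6 named genes; short lines are medians of 3 libraries. On day 1 LOC_Os01g63190 and LOC_Os05g31140 lie higher and LOC_Os05g11320 and LOC_Os09g10010 lower in all 3 severe-course libraries, as the rule that named them required. On day 2 the courses overlap for these 4 genes.

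The change of the irrigated plants from day to day took a different course in each control series. In severe-course controls, 1669 genes (8.63%) differed between day 1 and day 0, 754 higher and 915 lower on day 1. In moderate-course controls 0 genes (0%) were called between the same days by edgeR. Before adjustment 879 genes had a p under 0.05 there, and 10 were called by DESeq2 on the 18 libraries. Tested directly, the change to day 1 differed between the courses in 514 genes (2.66%), with 245 changing more in the positive and 269 more in the negative direction in severe-course controls. Between day 2 and day 1 the position was the reverse, with 9 genes (0.0465%) called in severe-course controls and 2434 (12.6%) in moderate-course controls. The difference of these changes was called in 1809 genes (9.35%).

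In the severe course, LOC_Os07g35940 had 0.588, 1.19 and 1.12 CPM on day 0, 15.2, 41.0 and 7.39 CPM on day 1 and 2.17, 1.98 and 7.04 CPM on day 2 (day 1 over day 0, log2 difference 4.43, SE 1.31, adjusted p = 0.023 by edgeR). By the naming rule it was higher on day 1 than on day 0 in every severe-course library, and LOC_Os01g63190, described above, was too (log2 difference 3.42, SE 0.99, adjusted p = 0.019 by edgeR). LOC_Os06g12320 had 21.3, 29.6 and 13.3 CPM on day 0, 1.08, 1.19 and 5.42 CPM on day 1 and 5.71, 5.39 and 4.52 CPM on day 2 (day 1 over day 0, log2 difference −2.98, SE 0.75, adjusted p = 0.0085 by edgeR). LOC_Os03g08490 had 10.6, 19.6 and 17.5 CPM on day 0, 2.23, 2.23 and 2.34 CPM on day 1 and 5.98, 4.75 and 5.78 CPM on day 2 (day 1 over day 0, log2 difference −2.80, SE 0.55, adjusted p = 0.0011 by edgeR). By the same rule both genes were below day 0 in all 3 libraries of day 1, and they remained under their day 0 values on day 2. Without the library of day 0 that stood apart 610 genes were called for this change, 265 higher and 345 lower. LOC_Os07g35940 (adjusted p = 0.081 by edgeR) and LOC_Os01g63190 (adjusted p = 0.082) were then not called, while LOC_Os06g12320 and LOC_Os03g08490 were. On the 18 libraries alone 2529 genes were called. Without severe-course control day 0 replicates 2 and 3 they numbered 919 and 1395, and without day 1 replicates 1 and 2 they numbered 918 and 1115. Leaving out replicate 2 in every group left 2 genes.

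The 4 genes named for the difference of the day 1 changes had fitted changes of opposite sign in the courses. They were −2.80, −2.36, 1.73 and 2.49 log2 in severe-course controls for LOC_Os03g08490, LOC_Os01g53090, LOC_Os04g08280 and LOC_Os03g04100, and 1.58, 1.48, −1.62 and −0.69 log2 in moderate-course controls, where none was called (adjusted p = 0.68 to 0.97 by edgeR). LOC_Os03g08490 had 13.7, 18.4 and 33.2 CPM on day 1 in moderate-course controls, above the 8.26, 9.45 and 4.06 CPM of day 0 (difference of the changes −4.38 log2, SE 0.72, adjusted p = 7.9e-05 by edgeR). LOC_Os01g53090 had 0.308, 0.838 and 1.12 CPM on day 1 in severe-course controls, against 2.35, 5.56 and 4.33 CPM on day 0. In moderate-course controls it had 6.69, 4.09 and 12.6 CPM on day 1, against 3.20, 3.94 and 1.11 CPM on day 0 (difference of the changes −3.85 log2, SE 0.87, adjusted p = 0.010 by edgeR). For both genes every library of day 1 was below day 0 in the severe course and above day 0 in the moderate course.

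LOC_Os04g08280 had 12.5, 12.4 and 9.46 CPM on day 1 in severe-course controls, against 4.78, 2.71 and 2.84 CPM on day 0, and 1.26, 0.790 and 0.423 CPM on day 1 in moderate-course controls, against 2.72, 1.80 and 3.08 CPM on day 0 (difference of the changes 3.35 log2, SE 0.85, adjusted p = 0.025 by edgeR). LOC_Os03g04100 had 5.46, 6.14 and 4.57 CPM on day 1 in severe-course controls, against 1.54, 0.927 and 0.374 CPM on day 0, and 2.23, 0.976 and 1.11 CPM on day 1 in moderate-course controls, against 2.29, 2.62 and 1.91 CPM on day 0 (difference of the changes 3.17 log2, SE 0.72, adjusted p = 0.010 by edgeR). The severe-course libraries of day 1 were the highest of the 12 libraries of days 0 and 1 for both genes. Without the library of day 0 that stood apart, the change to day 1 differed in 124 genes, 47 in the positive and 77 in the negative direction, and LOC_Os04g08280 was not among them (adjusted p = 0.057 by edgeR). On the 18 libraries alone 1346 genes had a different change to day 1. Single libraries moved that count to 2322 without severe-course control day 0 replicate 1, to 385 and 796 without replicates 2 and 3 of that group, and to 422 and 540 without severe-course control day 1 replicates 1 and 2. It was 733 and 733 without moderate-course control day 0 replicates 1 and 3, and 776 and 502 without moderate-course control day 1 replicates 2 and 3.

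Over the whole stretch, day 2 differed from day 0 in 121 genes (0.626%) in severe-course controls, 77 higher and 44 lower on day 2. In moderate-course controls it differed in 655 genes (3.39%), 251 higher and 404 lower. The difference of these changes was called in 2 genes (0.0103%), while 1320 had a p under 0.05 before adjustment in edgeR and DESeq2 on the 18 libraries called 36. One of the 2 was LOC_Os06g41840, with 7.34, 8.36 and 7.18 CPM on day 2 and 4.48, 5.56 and 4.56 CPM on day 0 in severe-course controls. In moderate-course controls it had 5.08, 5.41 and 5.14 CPM on day 2 and 9.16, 11.3 and 6.95 CPM on day 0 (difference of the changes 1.45 log2, SE 0.29, adjusted p = 0.029 by edgeR). Its call held in 5 of the 30 other settings and fits, and without the library that stood apart it was not called (adjusted p = 0.2 by edgeR).

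In severe-course controls, LOC_Os01g10504 had 34.3, 24.9 and 26.9 CPM on day 2 and 6.10, 5.16 and 8.97 CPM on day 0 (log2 difference 2.09, SE 0.38, adjusted p = 0.0012 by edgeR). LOC_Os03g04100 had 5.49, 1.77 and 4.20 CPM on day 2, against the day 0 values given above (log2 difference 2.03, SE 0.52, adjusted p = 0.042 by edgeR). Their libraries of day 2 lay above all libraries of day 0, as the naming rule required. LOC_Os02g45520 had 30.8, 35.2 and 19.7 CPM on day 2 and 139, 86.7 and 103 CPM on day 0 (log2 difference −1.94, SE 0.50, adjusted p = 0.043 by edgeR). LOC_Os07g02460 had 36.0, 48.3 and 46.7 CPM on day 2 and 71.3, 98.3 and 196 CPM on day 0 (log2 difference −1.48, SE 0.33, adjusted p = 0.016 by edgeR). The highest day 0 value of LOC_Os07g02460 came from replicate 3, the library that stood apart, and without it the log2 difference was −0.96 (adjusted p = 0.21 by edgeR). Without that library 44 genes were called, 33 higher and 11 lower. LOC_Os01g10504 was among them, and LOC_Os03g04100 (adjusted p = 0.18 by edgeR) and LOC_Os02g45520 (adjusted p = 0.073) were not. On the 18 libraries the count of 469 genes went to 922 and 12 without severe-course control day 0 replicates 1 and 2, to 33.3% of its size without replicate 3, to 50 and 2 without day 2 replicates 1 and 3, and to 299 without moderate-course control day 1 replicate 2.

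In moderate-course controls, LOC_Os05g31140 had 34.8, 127 and 134 CPM on day 2 and 8.10, 5.52 and 15.4 CPM on day 0 (log2 difference 3.36, SE 1.00, adjusted p = 0.041 by edgeR). LOC_Os05g51160 had 16.7, 32.1 and 22.4 CPM on day 2 and 3.30, 4.59 and 3.69 CPM on day 0 (log2 difference 2.61, SE 0.79, adjusted p = 0.045 by edgeR). Days 0 and 2 did not overlap for either gene, as the naming rule required. On day 1 the moderate-course controls had still held 1.94, 2.93 and 4.07 CPM of LOC_Os05g51160. LOC_Os09g10010 had 0.805, 0.815 and 0.507 CPM on day 2 and 47.7, 73.3 and 16.9 CPM on day 0 (log2 difference −5.99, SE 1.34, adjusted p = 0.010 by edgeR). LOC_Os09g36700 had 1.66, 2.15 and 0.290 CPM on day 2 and 68.3, 72.9 and 71.3 CPM on day 0 (log2 difference −5.67, SE 1.61, adjusted p = 0.033 by edgeR). In severe-course controls the same gene was at 0, 13.3 and 1.79 CPM on day 0 and at 0.154, 29.6 and 2.23 CPM on day 1. On day 2 it was at 1.36, 34.4 and 0.56 CPM there, so that replicate 2 was the highest severe-course library on each day. On the 18 libraries the count of 1457 genes went to 869, 534 and 712 without moderate-course control day 0 replicates 1, 2 and 3 and to 206 without day 2 replicate 2, and with all libraries it was 0 without replicate 2 of each group.

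Severe-course controls of day 1 differed in few genes from moderate-course controls of day 2, a day later. Between these groups 4 genes (0.0207%) passed in edgeR, and 1816 had a p under 0.05 before adjustment. Against moderate-course controls of day 0 the severe-course controls of day 1 differed in 3937 genes (20.4%). Severe-course controls of day 2 differed from moderate-course controls in 1310 genes (6.77%) of day 0 and in 3200 genes (16.5%) of day 1. Severe-course controls of day 0 differed from moderate-course controls in 650 genes (3.36%) of day 1 and in 384 genes (1.99%) of day 2, which became 472 and 219 without the library that stood apart. The median correlation across genes between libraries was 0.957 for severe-course day 1 with moderate-course day 1, 0.978 for severe-course day 1 with moderate-course day 2, and 0.985 for moderate-course day 1 with moderate-course day 0.

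**Figure D3:**
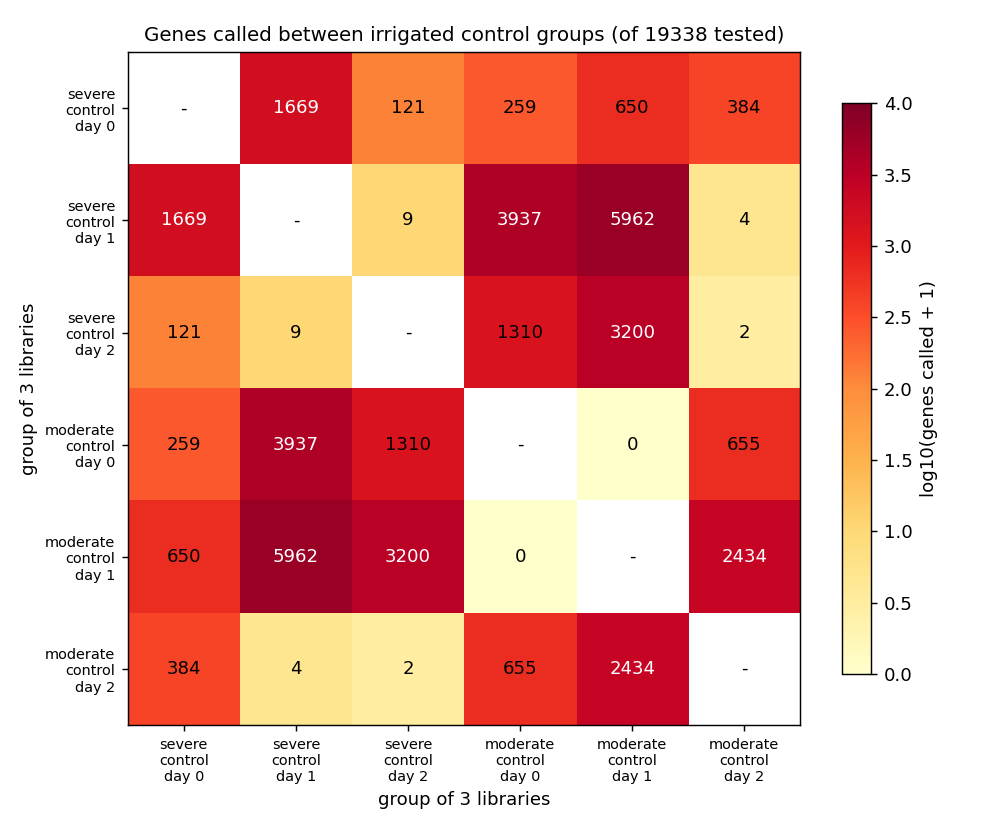
Number of genes called between each pair of the 6 irrigated control groups (severe-course groups first, 3 libraries each), coloured by log10 of the number plus 1. Severe-course day 1 differs from moderate-course day 1 in 5962 genes and from moderate-course day 2 in 4, while moderate-course days 0 and 1 differ in 0.

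The course difference of day 1 and the change of the moderate-course controls from day 0 to day 2 use different libraries and went in the same direction. Both comparisons called 483 genes. That is 8.1% of the 5962 and 73.7% of the 655, against 3.39% and 30.8% of all genes tested. Of the 483, 482 had the same sign, 165 higher and 317 lower. Genes higher in the severe course on day 1 had a median log2 difference of 0.32 between moderate-course days 2 and 0, and genes lower in the severe course had a median of −0.33. Among all genes called on day 1, 91.3% had the same sign in the moderate-course change, against 72.7% of all genes tested. Across the 19338 genes the correlation of the log2 differences was 0.60, given as a description because genes are not independent. The change of the severe-course controls to day 1 and the change of the moderate-course controls to day 2 again share no library. They called 183 genes in common, with the library that stood apart on day 0 included. The 183 were 11% of the 1669 and 27.9% of the 655, against 3.39% and 8.63% of all genes tested. Of the 183, 182 had the same sign, against 68% of all genes tested.

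**Figure D4:**
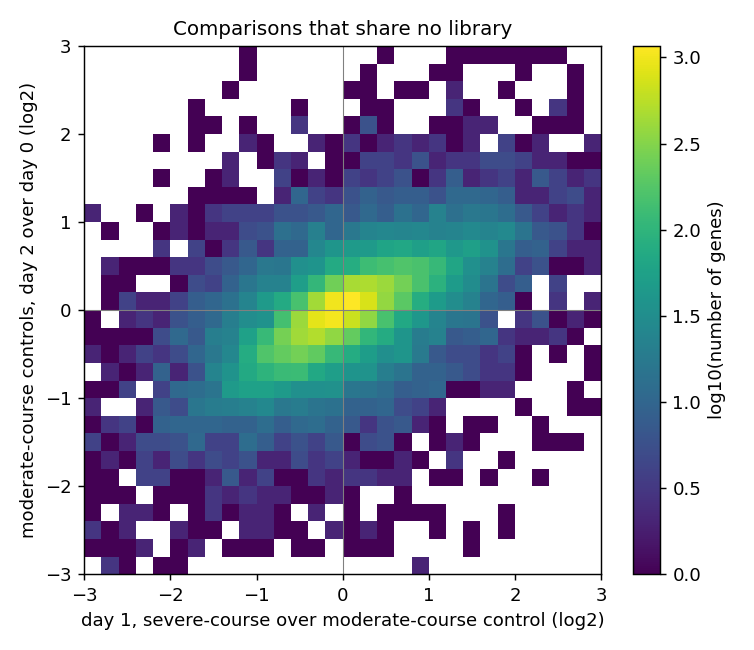
Log2 difference between moderate-course controls of day 2 and day 0 (y axis) against the log2 difference between severe-course and moderate-course controls of day 1 (x axis), with colour for log10 of the number of genes per square and both axes cropped at −3 and 3. The comparisons share no library, and 482 of the 483 genes called in both lie in the quadrants of equal sign.

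The direction on day 1 was already present in part on day 0. Of the 259 genes called between the courses on day 0, 132 (51%) were also called on day 1, against 30.8% of all genes tested. The 132 were 2.21% of the 5962, against 1.34% of all genes tested called on day 0, and 127 of them had the same sign. Without the library that stood apart the overlap was 97 of 220 genes (44.1%), against 30.2% of all genes tested, and 92 of the 97 had the same sign. Genes higher in the severe course on day 0 had a median log2 difference of 0.31 on day 1, and genes lower had a median of −0.34. From day 1 to day 2 little of it remained, since genes higher on day 1 had a median of 0.03 and genes lower on day 1 a median of −0.04 between the courses on day 2. The same sign on day 2 was found in 3414 of the 5962 genes (57.3%), against 53% of all genes tested, and the same sign on day 0 in 4448 (74.6%), against 62.4% of all genes tested.

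The genes called on day 1 were followed through all control libraries of the series by 1 value per library, the mean log2 CPM of the 2974 higher genes minus that of the 2988 lower genes, set to 0 at the mean of moderate-course day 0. The values on day 1 are a description, because that day chose the genes. In severe-course controls the value was 0.40 ± 0.33 on day 0, 1.44 ± 0.25 on day 1 and 0.90 ± 0.24 on day 2, and in moderate-course controls it was 0 ± 0.16, −0.38 ± 0.15 and 0.85 ± 0.29 on the same days (SD, n = 3). On day 2 the courses overlapped, at 0.62 to 1.06 in severe-course controls and 0.51 to 1.03 in moderate-course controls. In severe-course controls of days 3 to 12 single libraries lay between −0.40 and 1.20, and in moderate-course controls between −0.13 and 1.20.

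The spread between libraries of 1 group and day differed widely between groups. On day 6 libraries ran from −0.04 to 1.12 in the severe course and from −0.13 to 1.20 in the moderate course. On day 5, severe-course controls ran from −0.05 to 1.20 and moderate-course controls from 0.84 to 1.17, and on day 3 the moderate-course controls ran only from 0.25 to 0.35. The severe-course controls of days 3 to 12 belong to the libraries with high levels of the 3 genes given above, and the part of that in the course difference of later days cannot be told apart from the course. Moderate-course controls of days 3 to 12 had a mean log2 CPM of 2.86 to 4.63 for these genes, and day 5 replicate 3 at 4.33 and day 9 replicate 2 at 4.63 lay above the other 28. Within the moderate course, the count of genes called against day 0 by edgeR was 0 (0%) for day 3, 1 (0.00517%) for day 4, 1333 (6.89%) for day 5, 7 (0.0362%) for day 6 and 183 (0.946%) for day 7. It was 356 (1.84%) for day 8, 36 (0.186%) for day 9, 442 (2.29%) for day 10, 682 (3.53%) for day 11 and 1097 (5.67%) for day 12, so that it followed no steady order over the days. Before adjustment day 3 had 1235 genes with a p under 0.05.

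**Figure D5:**
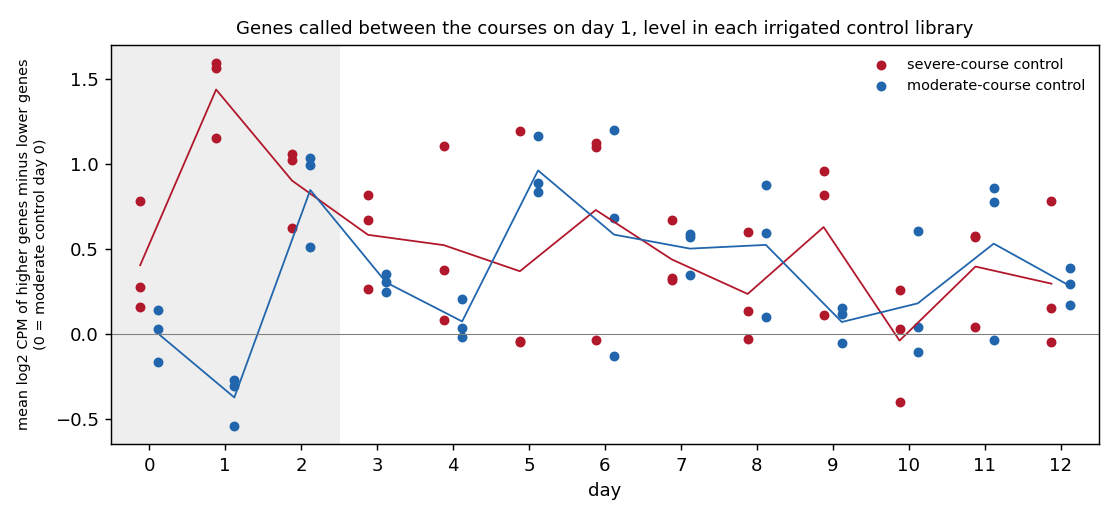
Mean log2 CPM of the genes higher minus the genes lower in severe-course than in moderate-course controls of day 1 (y axis, 0 at the mean of moderate-course control day 0) by day (x axis) in each irrigated control library, severe course in red and moderate course in blue. Lines join means of 3 libraries and the shaded days 0 to 2 are those compared. The means of day 1, at 1.44 and −0.38, are a description, because that day chose the genes. On day 2 the courses overlap.

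Genes called on day 1 were found at all levels of expression, at a share that increased with level. Of genes with a mean log2 CPM of 1 or less, 16.5% were called, and of genes above 7, 49.5%. Genes called on day 1 also varied more over later irrigated days than genes of similar level that were not called. In the moderate-course controls of days 3 to 12, the median SD of the day means among genes with a mean log2 CPM between 3 and 5 was 0.145 log2 for the 1815 called genes and 0.11 log2 for the others. The order was the same in each of the other 4 ranges of level. Over all levels together the median SD was 0.195 for genes higher on day 1, 0.154 for genes lower and 0.173 for genes not called.

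A small set of genes kept the courses apart on all 3 days. In 26 genes (0.134% of those tested) all 9 severe-course libraries lay outside the range of all 9 moderate-course libraries, 8 higher and 18 lower. LOC_Os05g41510, chosen after its values were seen because it was the most abundant of the 26, had 551 to 731 CPM in severe-course controls and 429 to 541 CPM in moderate-course controls (log2 difference 0.33, SE 0.08, adjusted p = 0.0012 by edgeR). LOC_Os08g09940, chosen after its values were seen among the lower genes, had 86.2 to 104 CPM in severe-course controls and 105 to 126 CPM in moderate-course controls (log2 difference −0.26, SE 0.05, adjusted p = 3.6e-05 by edgeR). On days 0, 1 and 2 the difference was 0.38, 0.37 and 0.25 log2 for LOC_Os05g41510 and −0.41, −0.26 and −0.12 log2 for LOC_Os08g09940. Over the 26 genes the log2 difference for days 0 to 2 ran from −0.42 to 1.47, and the gene at 1.47, LOC_Os05g15990, was of low level, with 0.496 to 1.08 CPM in severe-course controls and 0.0741 to 0.479 CPM in moderate-course controls. On days 3 to 12, in other libraries, 25 of the 26 genes had the same sign between the courses. The same sign was found in 2263 of the 3362 genes called for days 0 to 2 and in 56.3% of all genes tested. Severe-course controls of those days are high in the 3 genes that set libraries apart, so that course and library set cannot be told apart there. On those days 18 of the 26 were called, 17 of them with the same sign, where 5421 genes (28%) were called in all. The later log2 difference was 0.40 for LOC_Os05g41510 (adjusted p = 5e-14 by edgeR) and −0.20 for LOC_Os08g09940 (adjusted p = 2.6e-10 by edgeR).

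Between all 3362 genes called for days 0 to 2 and the 5421 called for days 3 to 12, 1083 were shared. They were 32.2% of the first and 20% of the second, near the 28% and 17.4% of all genes tested that were called. Of the 1083, 923 had the same sign, against 56.3% of all genes tested. Among the genes named above, LOC_Os09g27920 remained higher in severe-course controls on days 3 to 12 (log2 difference 1.11, adjusted p = 0.0058 by edgeR) and LOC_Os04g27790 remained lower (log2 difference −1.01, adjusted p = 0.018 by edgeR). The later medians were 1.97 CPM in 30 severe-course controls and 1.55 CPM in 30 moderate-course controls for LOC_Os09g27920, and 5.07 and 19.2 CPM in the same groups for LOC_Os04g27790. The other 2 genes named for days 0 to 2 were not called on days 3 to 12. LOC_Os01g63190 had a median of 1.04 CPM in severe-course controls and 1.15 CPM in moderate-course controls (log2 difference 0.55, adjusted p = 0.4 by edgeR). LOC_Os05g11320 had 74.2 CPM in severe-course controls and 56.3 CPM in moderate-course controls, opposite in sign to its earlier difference (log2 difference 0.64, adjusted p = 0.38 by edgeR). LOC_Os04g34290 remained lower, with a median of 20.6 CPM in 30 severe-course controls and 26.0 CPM in 30 moderate-course controls (log2 difference −0.37, adjusted p = 8.1e-10 by edgeR). LOC_Os04g16728 did not keep its direction, with a later log2 difference of −1.20 (adjusted p = 4.8e-15 by edgeR). It had 1.24 to 3.33 CPM in the severe-course controls of days 3 to 12. Severe-course drought libraries, also high in the 3 genes that set libraries apart, had 2.38 to 2.95 CPM on day 0. They had 1.64 to 2.05 CPM on day 1 and 1.2 to 1.67 CPM on day 2. For all these later differences, course and library set cannot be told apart.

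The drought contrasts of days 0 to 2 use these controls as their baseline, so their counts stand beside the course difference of the controls and are not independent of it. In the severe course, drought minus control called 253 genes (1.31%) for day 0, 272 without the control that stood apart, 7012 (36.3%) for day 1 and 1616 (8.36%) for day 2. In the moderate course it called 908 (4.7%), 3743 (19.4%) and 1883 (9.74%) for these days. The day with the most genes called was day 1 in both courses, as in the comparison of the controls. In the severe course the drought libraries of days 0 to 2 had a mean log2 CPM of 6.30 to 7.17 for the 3 genes that set libraries apart, against 5.35 or less in their controls, so that drought and library set cannot be told apart there. In the moderate course the drought libraries had 2.68 to 4.08, other than 1 library of day 0 with 6.15.

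For LOC_Os05g31140, 3 severe-course drought libraries of day 1 had 1.76 to 5.04 CPM, against 98.5 to 211 CPM in severe-course controls (log2 difference −5.73, adjusted p = 3.7e-05 by edgeR). Moderate-course drought libraries had 4.47 to 8.26 CPM and moderate-course controls 3.81 to 5.72 CPM (log2 difference 0.29, adjusted p = 0.88 by edgeR). The severe-course controls were the group that lay apart from the other 3 groups of day 1. For LOC_Os09g10010 the moderate-course controls were that group, with 0.1 to 2.27 CPM in moderate-course drought and 12.7 to 76.7 CPM in moderate-course controls (log2 difference −5.11, adjusted p = 0.0012 by edgeR). Severe-course drought had 0.373 to 1.81 CPM and severe-course controls 0.532 to 1.05 CPM (log2 difference 0.15, adjusted p = 0.96 by edgeR).

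The moderate-course drought contrast of day 2 shares no library with the course difference of day 1. Both called 895 genes, 15% of the 5962 and 47.5% of the 1883, against 9.74% and 30.8% of all genes tested. Of the 895, 855 had opposite signs. Genes higher in severe-course controls on day 1 had a median log2 difference of −0.30 between drought and control on day 2 of the moderate course, and genes lower had a median of 0.15. Over all genes tested, 38% had the same sign in these comparisons. The drought contrast of day 2 uses the moderate-course controls of day 2 as its baseline. There the value that follows the genes called on day 1 averaged 0.85, against 0 in moderate-course controls of day 0. The part of this baseline in the opposite signs was not tested. The moderate-course drought contrast of day 0 called 320 genes in common with day 1, 5.37% of the 5962 and 35.2% of the 908. Those shares were near the 4.7% and 30.8% of genes tested that these comparisons called. Of the 320, 230 had the same sign, against 49.5% of all genes tested. This contrast includes the drought library with 6.15 for the 3 genes that set libraries apart, and the part of that library in these counts was not tested. On days 5 to 8 of the moderate course, 1774 genes were called in both, 29.8% of the 5962 and 31.9% of the 5553 (28.7% of genes tested), and 1325 had opposite signs, with the same sign in 40.2% of all genes tested. On days 9 to 12, 1291 genes were called in both, 21.7% of the 5962 and 27.9% of the 4624 (23.9% of genes tested), and 875 had the same sign, against 51.9% of all genes tested. The moderate-course controls of days 5, 6, 7 and 8 averaged 0.96, 0.59, 0.5 and 0.52 in the value named above. Those of days 9, 10, 11 and 12 averaged 0.07, 0.18, 0.53 and 0.28. The part of these baselines in the signs was not tested either.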

How the data were processed

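Leaf polyA RNA of 52 groups of 3 samples was sequenced in libraries that keep strand, per the labels' protocols. The authors deposited 1 table of raw counts of reads for each gene. Per the submitters' processing notes, the authors used STAR for alignment, featureCounts 2.0.0 for counting and IRGSP-1.0 as the genome build. Not given in the sources used here are the STAR version, the strand setting and how reads matching several genes were treated, so overlapping, antisense or near-identical genes can share counts. Of 55986 identifiers, 55801 have the LOC_Os form, and the table of gene names at hand matched 0 of them. Planned gene lists therefore could not be placed, and no sequence is given. Columns were assigned to samples by name, and 4 columns with no matching sample stayed out.

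Genes were kept by filterByExpr of edgeR 4.0.16 (R 4.3.3) with a minimum count of 10 and a minimum total of 15, which left 19338. TMM factors scaled the libraries. All libraries of the series entered 1 quasi-likelihood fit (glmQLFit, then glmQLFTest) of 52 groups, 1 for each course, arm and day, which leaves 104 residual degrees of freedom and a shared estimate of the spread. P-values were adjusted by the Benjamini-Hochberg method over the 19338 genes, and 0.05 was the threshold. The SE is the absolute log2 difference over the square root of F. The days 0 to 2 comparison is the mean of 3 day-matched differences. TMM-scaled totals also underlie CPM, and a prior count of 2 was added for log2 CPM. The step was tested on simulated data.

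Named genes had the largest change among those called and averaged at least 1 in log2 CPM over the 18 libraries. For days 0 to 2 they also had the same sign on the 3 days, and for single days and day changes within a course their groups of 3 did not overlap. The rule took 2 in each direction. The members, rules and comparisons were chosen with earlier results of these data known, and the comparisons across days between courses, of day 2 with day 1, of days 0 and 2 alone and of later days, and the fit without severe-course control day 0 replicate 3, were added after the data were seen. Alternatives were DESeq2 1.42.0 size factors, no filter, a minimum fold of 2, a replicate block, thinned counts, other dispersions, edgeR or DESeq2 on the 18 libraries alone, and leaving out libraries. Same-numbered libraries of the courses deviated together with correlations of −0.10 to 0.17 only, so replicate numbers were not taken as pairs. Counts per library limit the precision of low genes, and p-values carry both counting error and the spread between libraries.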

Additional observations from a re-analysis of the deposited data

Results flagged for a closer look

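Results here are those in which the change over days differed between the courses by the test of the difference itself, in edgeR's quasi-likelihood model. The change from day 0 to day 1 differed in 514 genes and the change from day 0 to day 2 in 2 genes. In log2 terms, severe-course minus moderate-course, the difference of the day 1 changes was 3.35 for LOC_Os04g08280, 3.17 for LOC_Os03g04100, −4.38 for LOC_Os03g08490 and −3.85 for LOC_Os01g53090. The difference of the day 2 changes was 1.45 for LOC_Os06g41840. Without severe-course control day 0 replicate 3 the counts were 124 and 1, and LOC_Os04g08280 and LOC_Os06g41840 were not called. The levels behind these values are given per library above. What the courses' irrigated plants had in common with, or apart from, each other on day 1 beyond these counts was not tested.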

How the results depend on the processing

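No named gene changed sign under any alternative, which the choice of called genes with the largest changes favoured beforehand. Those of single days and of day changes within a course also had groups without overlap by rule. Their signs therefore say little about how firm the results are. Over all single-gene results, leaving out libraries kept 509 calls and ended 181, and the other settings kept 187 and ended 23. The counts of genes called did move. With a minimum of 2-fold, the course difference held 365 genes for days 0 to 2 and 92, 1942 and 1 on days 0, 1 and 2. The same minimum left 457 and 36 genes for severe-course days 1 and 2 against day 0, 225 for moderate-course day 2, and 277 for the difference of the day 1 changes. Without the filter on low counts the course difference called 2157 genes for days 0 to 2, 97 on day 0 and 1 on day 2. It then called 962 and 31 genes for the severe-course changes, 223 for moderate-course day 2, and 124 and 0 for the differences of the changes to days 1 and 2. In counts thinned to the smallest library the day 0 and day 2 course differences had 120 and 1 genes, severe-course and moderate-course day 2 changes 60 and 317, and the differences of changes 286 and 0. Dispersions estimated beforehand, an alternative chosen after seeing the data, gave 1 gene for the day 2 course difference and 0 for the difference of the day 2 changes.

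On the 18 libraries alone, edgeR called 2529 and 469 genes for severe-course days 1 and 2 against day 0, 1457 for moderate-course day 2, 1346 and 0 for the differences of changes and 0 for the day 2 course difference. DESeq2 on these libraries called 641 and 9 genes for the course difference on days 0 and 2. It called 2990 and 1111 genes for the severe-course changes, 10 and 2113 for the moderate-course changes, and 2109 and 36 for the differences of changes. Without severe-course control replicates 1 and 2 of day 1, chosen after seeing the data, 1074 genes were called for days 0 to 2, 227 on day 1, 2 for the severe-course day 1 change and 5 for the difference of the day 1 changes. Days 0 and 2 alone, also chosen then, gave 115. The cause of these shifts was not tested.

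Leaving out 1 replicate number, in the fit of all libraries, or 1 library, in the fit on the 18 libraries, gave 352 to 4190 genes for days 0 to 2. With no library left out these fits called 3362 and 4009 genes, so the ranges given here also hold the change of fit. The range was 7 to 220 on day 0, 3436 to 6543 on day 1 and 0 to 2 on day 2. It was 2 to 3268 and 1 to 922 for the severe-course changes to days 1 and 2, 0 to 2 and 0 to 1840 for the moderate-course changes, and 5 to 2322 and 0 to 1 for the differences of changes. The replicate block gave 3577 genes for days 0 to 2 and 318, 6158 and 2 on days 0, 1 and 2. It gave 1885 and 174 genes for the severe-course changes, 0 and 838 for the moderate-course changes, and 659 and 2 for the differences of changes, and the numbers are not shown to pair the libraries, since 4 of 9 correlated best with their own number. Calls were fewer at low counts, with 16.5% of genes at a mean log2 CPM of 1 or less called on day 1 and 49.5% of genes above 7.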
